A study of Homo sapiens with 12 samples.

Results

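The HOX gene clusters were examined for binding of cohesin and of CTCF in HAP1 cells. The members were the SMC1 and CTCF peaks of 4 genotypes that touch 4 windows of the human genome build hg19: chr7:27100000-27280000 (HOXA), chr17:46580000-46830000 (HOXB), chr12:54300000-54470000 (HOXC) and chr2:176920000-177080000 (HOXD). Each peak was assigned to the nearest coding span among 38 member genes. The windows held 228 of the 265912 SMC1 and CTCF peaks of the series. HAP1 is a near-haploid human line derived from a chronic myeloid leukaemia. ChIP-seq was done with antibodies to SMC1, which belongs to the cohesin ring itself, and to CTCF, and with non-specific IgG as the control. The 4 genotypes were wild-type cells, ΔWAPL cells, which lack the factor that releases cohesin from DNA (clone 3.3), ΔSCC4 cells, which lack a subunit of the cohesin loader, and ΔWAPL/ΔSCC4 cells (double knockout), made by deleting SCC4 in the ΔWAPL line. The deletions were made with CRISPR nucleases and inserted resistance cassettes. The paper describes the ΔWAPL and ΔSCC4 lines as clones, the wild type is HAP1 itself, and each genotype has 1 library per antibody. A difference between genotypes can therefore not be told apart from one between cell lines, clones or libraries, and no test between genotypes was possible. The intervals given cover counting error at 95% only. Those of level ratios count reads, which carry no molecular identifiers, and those of shares and peak counts take peaks or regions as units.

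HOX genes encode homeodomain transcription factors that give cells their position along the body axis, and the genes of a cluster stand in the order in which they are used from head to tail. CTCF binds DNA with a directional motif, and cohesin, which extrudes chromatin loops, tends to stop where CTCF is bound. Bound CTCF sites inside HOX clusters are known to divide active from inactive genes.

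Each peak was described by a pair of measures. The first was the deposited fold enrichment at the summit, a ratio to the local background. The second was the summit level, which is the number of reads over the summit divided by the genome-wide average of the same library. The reads at each summit were recovered from the deposited values. The local background was the read density of the 10 kb around the summit in the same library, with the reads of the peak itself and of its neighbours included. A fold enrichment therefore does not rise when a whole stretch gains reads together. The 8 libraries held between 6.53 and 8.41 reads per kb, and the fewest summit reads of a called HOX peak were 10. No IgG peak of any genotype fell in the 4 windows.

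The motif matches at 11 CTCF sites are shown because the values below turn on them. They comprise the sites of the 3 strongest SMC1 peaks, 2 sites that were low in ΔSCC4 cells, a near-identical pair in HOXC10 and HOXD10, and the site between the group 9 gene and its next lower-numbered neighbour in each cluster. They are read from 5′ to 3′ on the strand of the motif in the GRCh37 reference, the 19 matched bases stand in capitals, and 5 bases are added on each side.
HOXA7/HOXA6 site, chr7:27190587-27190605, plus strand: ggcgaCGGCCACGGCGTGGCAGCAgcgag
HOXB6/HOXB5 site, chr17:46671399-46671417, minus strand: gtcggTCGCCGGGAGGTGGCGCGCtctgc
EVX2 site beside HOXD13, chr2:176944716-176944734, minus strand: tgccgCTGCCGCCAGGGGGCGCCCcgggg
PRAC2 site beside HOXB13, chr17:46802050-46802068, plus strand: agcctCTGTCGGAAGGGGGCGCCCacgtc
HOXD8/HOXD4 site, chr2:177005370-177005388, plus strand: cgcctCGTCCAGGAGGAGGCGCTGtagga
HOXC10 exon site, chr12:54383087-54383105, minus strand: cttgcTAATCTCCAGGCGGCGCTCtcgcg
HOXD10 exon site, chr2:176983816-176983834, minus strand: cttacTGATCTCTAGGCGGCGCTCgcggg
HOXA9/HOXA7 site, chr7:27200753-27200771, minus strand: aacggCGGCCAGCAGATGGCAGTGtggct
HOXB9/HOXB8 site, chr17:46696104-46696122, minus strand: cagagCAGCCGCTAGATGGCACCCttgct
HOXC9/HOXC8 site, chr12:54399903-54399921, plus strand: ccaaaTGGACGCGAGGTGGCGCTGttgct
HOXD9/HOXD8 site, chr2:176991930-176991948, plus strand: gcattTGGCCACTAGAGAGCGCTGttgct
The motif was learned from CTCF summits on chromosomes without a HOX cluster, and its consensus was CGGCCACCAGGGGGCGCCG. A match on either strand within 50 bp of the summit was found in 32 of 38 HOX CTCF regions, or 84.2% (69.6 to 92.6), against 73.8% of all CTCF regions. At the stricter score, 22 of 38 matched, or 57.9%, against 55.2% of all. The matches at the HOXA7/HOXA6, HOXC10 and HOXD10 sites passed the first score alone. The matches of the HOXC10 and HOXD10 exons shared 17 of 19 bases, the most among 496 pairs of HOX matches, whose median was 10. Both lie in protein-coding exons of paralogous genes. The PRAC2 and EVX2 matches, each beside a group 13 gene, came next with 16 of 19 bases.

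Cohesin peaks were present in all 4 clusters in every genotype, with the most in ΔWAPL cells and the fewest in ΔSCC4 cells. The windows held 25 SMC1 peaks in the wild type, 33 in ΔWAPL, 19 in ΔSCC4 cells and 26 in double knockout cells. The ratio of ΔWAPL to wild-type counts was 1.32 (0.761 to 2.32), where the whole lists gave 1.83. The ratio of ΔSCC4 to wild-type counts was 0.760 (0.396 to 1.44), where the whole lists gave 0.689. The counts of CTCF peaks were 30, 36, 30 and 29 in the same order. Both HOX intervals of the SMC1 counts include 1. They treat the counts as independent, although most peaks lie at shared sites, so they cannot decide whether the counts differ. Of the 33 ΔWAPL peaks, 24 overlapped a wild-type peak, against 51% of the whole list. Of the 19 ΔSCC4 peaks, 18 did, against 87.3%. HOXC was the cluster that kept nearly the same SMC1 count throughout, with 4, 4, 3 and 4 peaks, whereas HOXA went from 5 in the wild type to 9 in ΔWAPL, 4 in ΔSCC4 cells and 7 in double knockout cells.

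The clusters were dense in both proteins. Wild-type cells had 3.29 SMC1 peaks per 100 kb in the windows, 1.27 in the 500 kb on each side of them and 0.608 over the genome. For CTCF these densities were 3.95, 2.52 and 1.42. The clustered protocadherin genes, another locus with many CTCF sites, had more CTCF than the HOX windows, 6.89 per 100 kb, but fewer SMC1 peaks, 0.676. Of the HOX CTCF peaks of wild-type cells, 23 of 30 overlapped an SMC1 peak, or 76.7% (59.1 to 88.2), against 40.7% of all CTCF peaks and 9.8% (4.26 to 21.0) of those in the protocadherin genes. In ΔWAPL cells this was 75% (58.9 to 86.3) of 36 HOX peaks, against 60.8% of all. In ΔSCC4 cells it was 56.7% (39.2 to 72.6) of 30, against 32.3%, and in double knockout cells 82.8% (65.5 to 92.4) of 29, against 52.2%. HOX CTCF sites thus carried an SMC1 peak in a larger share than CTCF sites at large in all 4 genotypes, although the ΔWAPL interval includes the share of the whole list. In the 500 kb on each side the share was 46.5% in the wild type, 58.9% in ΔWAPL, 40.0% in ΔSCC4 cells and 57.3% in double knockout cells. The HOX interval of ΔSCC4 cells includes that flanking share, and the interval of ΔWAPL cells begins next to it. HOX CTCF peaks were also stronger, with a median summit level of 60.4 against 34.1 for all wild-type CTCF peaks.

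In the reverse direction the HOX windows resembled the whole lists. A CTCF peak of the same genotype lay at 23 of 25 SMC1 peaks in wild-type cells, or 92.0% (75 to 97.8), against 94.5% of all. It lay at 26 of 33 in ΔWAPL cells, or 78.8% (62.2 to 89.3), against 81.6%. In ΔSCC4 and double knockout cells the shares were 89.5% of 19, against 95.2%, and 92.3% of 26, against 93.5%. Of the wild-type SMC1 peaks, 24 of 25 were overlapped by a peak in ΔWAPL cells (93.7% of the whole list), 18 in ΔSCC4 cells (60.2%) and 23 in double knockout cells (89.8%). Among 30 CTCF peaks of the wild type, 29 had an overlapping peak in ΔWAPL cells (91.6% of the whole list), 29 in ΔSCC4 cells (83.4%) and 28 in double knockout cells (93.2%).

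**Figure D1:**
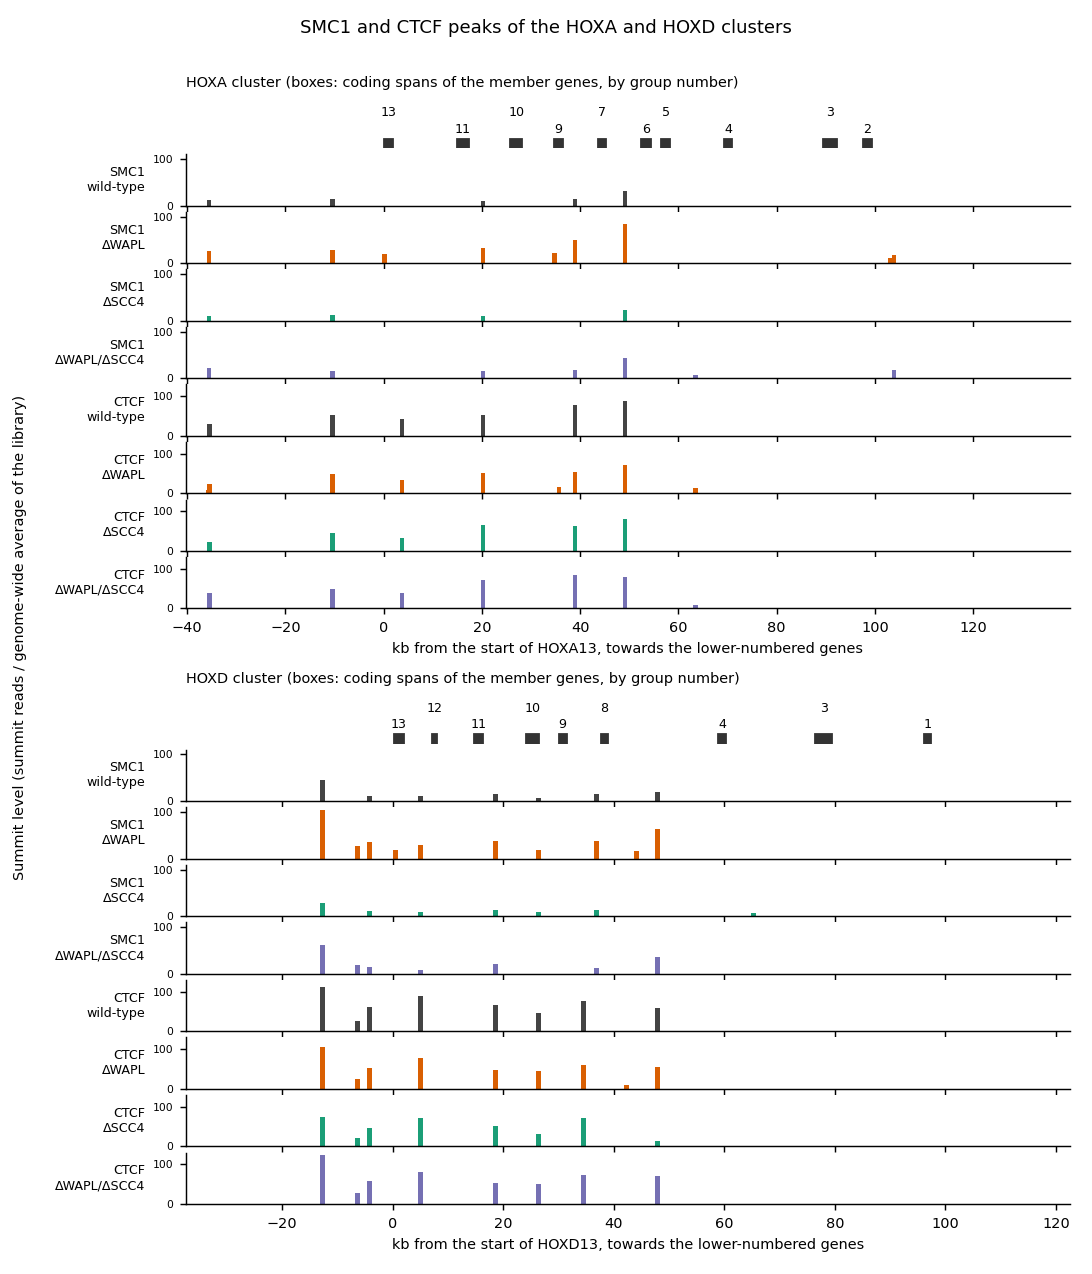
Summit level (vertical axis, reads at the summit over the genome-wide average of the library) of every called SMC1 and CTCF peak of the HOXA and HOXD windows, 1 row per antibody and genotype, against the distance in kb from the start of the group 13 gene. A gap in a row means that no peak was called. SMC1 bars stand highest in ΔWAPL cells, up to 105 at the EVX2 site of HOXD, and the CTCF bar near 48 kb in HOXD is short in ΔSCC4 cells.

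When the peaks of the genotypes were merged, the windows held 36 SMC1 regions. Of these, 17 had a peak in all 4 genotypes, against 28.2% of the 38018 regions of the genome. Another 9 of the 36 had a peak in ΔWAPL cells and none in the wild type or ΔSCC4 cells, against 40.4% of all regions. Of those 9, 7 were found in ΔWAPL cells alone, which is 19.4% of the HOX regions, against 24.3% of all regions. A further 6, or 16.7%, lacked a peak in ΔSCC4 cells alone, near the 14.1% of all regions. Single regions were called in the wild type, in ΔSCC4 or in double knockout cells alone, and 1 was missing from double knockout cells alone. CTCF was steadier, with 28 of 38 merged regions in all 4 genotypes, against 64.2% of 53945. A missing peak is a missing call and does not show that reads were absent.

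In HOXA the strongest SMC1 site lay between HOXA7 and HOXA6, genes of trunk patterning, at chr7:27190154-27191093, in introns of HOXA3 and HOXA-AS3 and 381 bp upstream of a HOXA6 start. It had 51 reads in the wild type, 133 in ΔWAPL, 38 in ΔSCC4 cells and 68 in double knockout cells, which are levels of 32.3, 83.5, 22.7 and 44.1. ΔWAPL cells were highest and ΔSCC4 cells lowest. The next site, in the intergenic stretch between HOXA9, a gene of haematopoietic progenitors, and HOXA7 (chr7:27200209-27200958), had levels of 14 in the wild type, 48.9 in ΔWAPL and 18.8 in double knockout cells and no peak in ΔSCC4 cells. Its rise in ΔWAPL cells, 3.51-fold (2.16 to 5.92), was the largest of any HOX SMC1 site. Its fold enrichment hardly moved, from 4.14 to 4.76, since the 10 kb window that includes the peak rose 3.39-fold as well. Between HOXA11 and HOXA10 (chr7:27219315-27219752) levels were 10.2, 32.6, 10.8 and 14.9 in the same order of genotypes. Beyond HOXA13, the group 13 gene that shapes distal limb and urogenital tract, 2 intergenic sites had peaks in every genotype. The nearer (chr7:27249912-27250462) had levels of 15.2, 28.9, 11.4 and 16.2, and the farther (chr7:27274895-27275667) of 12.1, 27.0, 10.8 and 21.4. At each of these sites ΔWAPL cells were again the highest. A weak peak between HOXA5 and HOXA4 (chr7:27176138-27176364, level 7.13, 11 reads) was called in double knockout cells alone.

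**Figure D2:**
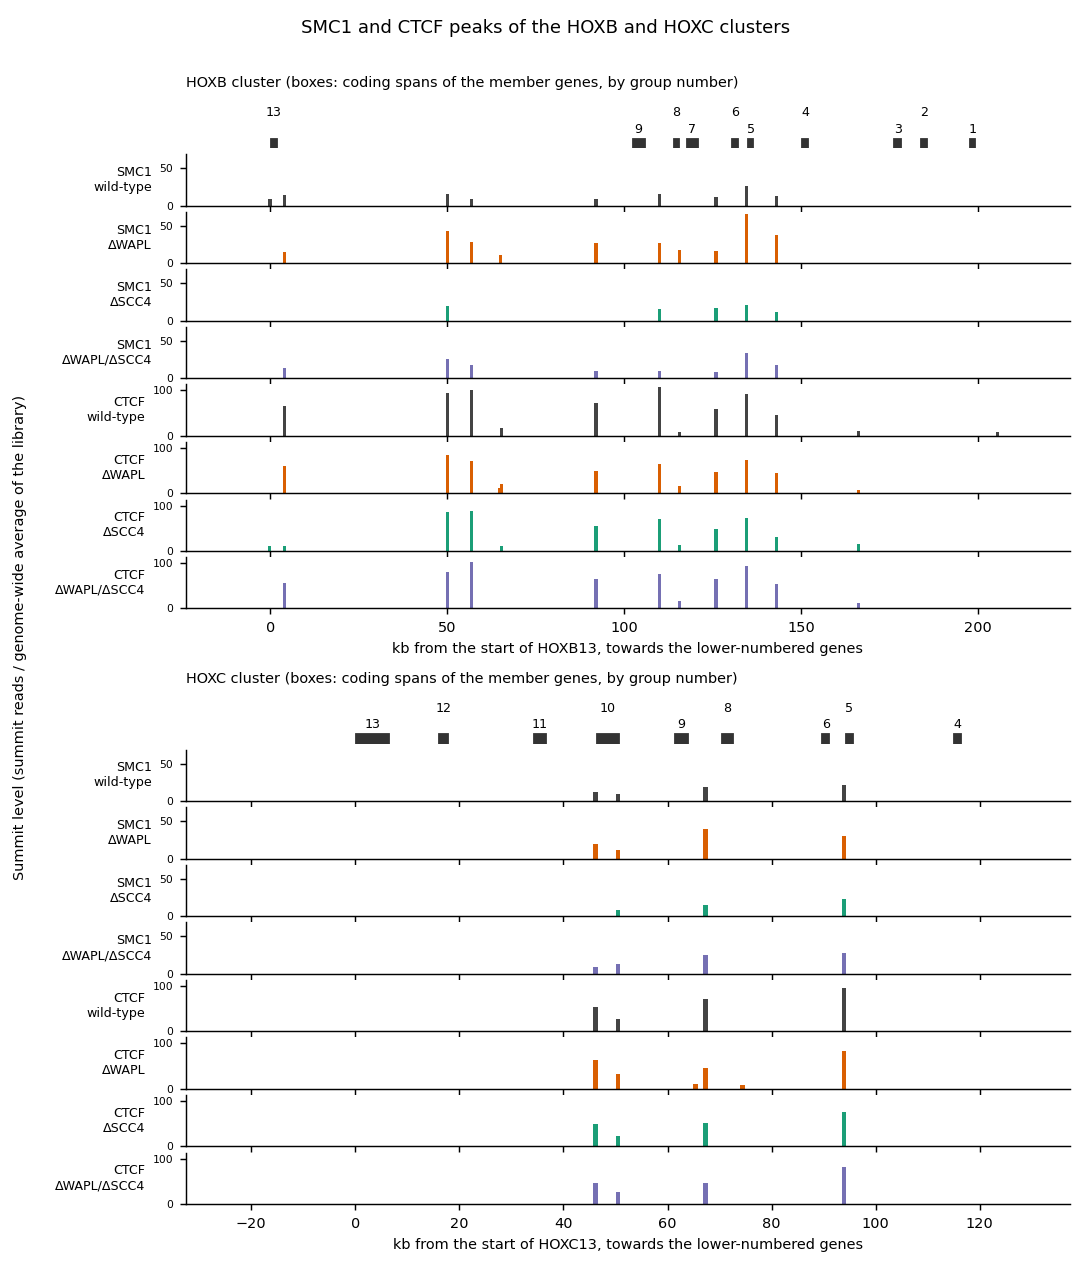
Summit level (vertical axis, reads at the summit over the genome-wide average of the library) of every called SMC1 and CTCF peak of the HOXB and HOXC windows, 1 row per antibody and genotype, against the distance in kb from the start of the group 13 gene. No SMC1 region was nearest to HOXB1 to HOXB4 or to HOXC11 to HOXC13, and the CTCF bar near 4 kb in HOXB is short in ΔSCC4 cells.

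In HOXB the strongest SMC1 site lay between HOXB6 and HOXB5, a gene that acts in the enteric nervous system, at chr17:46671186-46671639, 295 bp upstream of HOXB5. Its levels were 26.0 in the wild type, 65.3 in ΔWAPL, 21.5 in ΔSCC4 cells and 33.7 in double knockout cells. The site between HOXB5 and HOXB4 (chr17:46662644-46663153) had 12.7, 38.3, 11.4 and 18.2, so both followed the order seen in HOXA. In the long gap between HOXB9 and HOXB13, a prostate-associated gene, 4 sites had peaks in the wild type, ΔWAPL and double knockout cells. The site in LINC03057 (chr17:46713810-46714283) rose from 8.88 in the wild type to 27.0 in ΔWAPL cells, had no peak in ΔSCC4 cells and stood at 9.73 in double knockout cells. In LINC02086, 1 site (chr17:46749020-46749469) went from 8.88 to 28.2 with no peak in ΔSCC4 cells and 17.5 in double knockout cells, and another (chr17:46755728-46756208) had 15.9, 42.7, 19.7 and 25.3. The last of them, the PRAC2 site next to HOXB13 (chr17:46801838-46802226), had levels close to each other, with 14.6 in the wild type, 15.1 in ΔWAPL and 14.3 in double knockout cells and no peak in ΔSCC4 cells.

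Other HOXB sites were weaker or varied in another order. The site between HOXB7 and HOXB6 (chr17:46679887-46680376) had levels of 11.4 in the wild type, 16.3 in ΔWAPL, 16.7 in ΔSCC4 cells and 8.43 in double knockout cells. Between HOXB9 and HOXB8 (chr17:46695887-46696293) they were 15.2, 26.4, 15.5 and 10.4. At both sites double knockout cells were the lowest, although the counts were small, with 13 and 16 reads there. ΔWAPL cells alone had a peak in the 3′ UTR of HOXB8 (chr17:46689929-46690590, level 18.2) and 1 in LINC02086 (chr17:46740851-46741138, level 11.3). Wild-type cells alone had one 44 bp upstream of HOXB13 (chr17:46806124-46806317, level 8.88, 14 reads).

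HOXC had the fewest sites and the smallest rise in ΔWAPL cells. The site between HOXC9, which sets thoracic motor neuron identity, and HOXC8 (chr12:54399737-54400197) had levels of 19 in the wild type, 39.5 in ΔWAPL, 15.5 in ΔSCC4 cells and 25.3 in double knockout cells. The site 289 bp upstream of a HOXC5 start (chr12:54426355-54426782) had 20.9, 30.1, 22.7 and 27.2, and its ΔWAPL to wild-type interval includes 1 (0.905 to 2.32). In a coding exon of HOXC10, a gene of the lumbar region (chr12:54382845-54383229), levels were 10.2, 11.9, 8.37 and 13, and all intervals of the ratios to wild-type include 1. The site just upstream of HOXC10 (chr12:54378589-54379067) had 12.1 in the wild type, 19.5 in ΔWAPL and 9.73 in double knockout cells and no peak in ΔSCC4 cells.

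HOXD held the strongest SMC1 peak of the 4 clusters. It lay in the 3′ UTR of EVX2, the even-skipped homeobox gene beside HOXD13, at chr2:176944434-176945340. It had 71 reads in the wild type, 167 in ΔWAPL, 48 in ΔSCC4 cells and 94 in double knockout cells, or levels of 45.0, 105, 28.7 and 60.9. It was the only HOX site whose ΔSCC4 to wild-type level interval lay below 1, at 0.637 (0.432 to 0.932), against 8.79% of all regions. The intergenic site 4192 bp upstream of HOXD13, a gene of digit formation (chr2:176953056-176953423), had 11.4, 35.1, 10.8 and 15.6. Its neighbour (chr2:176950703-176951330) had peaks in ΔWAPL cells, at 27.6, and double knockout cells, at 19.4, alone. Between HOXD13 and HOXD12 (chr2:176961944-176962663) levels were 12.1, 28.9, 8.97 and 7.78, and between HOXD11 and HOXD10 (chr2:176975893-176976321) 14.6, 38.9, 12.5 and 20.7. The HOXD10 exon site (chr2:176983682-176984002) had 6.34 in the wild type, 18.8 in ΔWAPL and 10.2 in ΔSCC4 cells and no peak in double knockout cells. Between HOXD8 and HOXD4 (chr2:177005113-177005801), where the cluster passes to its early-acting genes, levels were 20.3 in the wild type, 63.4 in ΔWAPL and 35.0 in double knockout cells, with no peak in ΔSCC4 cells.

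**Figure D3:**
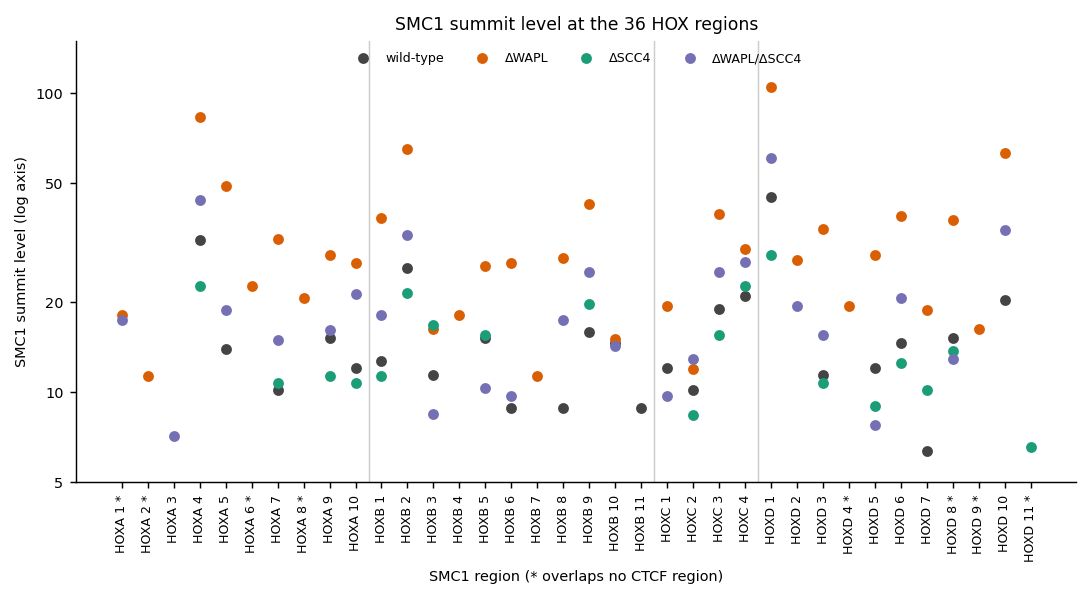
SMC1 summit level (log axis, reads at the summit over the genome-wide average of the library) at the 36 HOX SMC1 regions, numbered by coordinate in each cluster, 1 point per genotype with a called peak and no replicates. Stars mark the 8 regions without CTCF. In 15 of the 17 regions with 4 points, ΔWAPL cells are the highest, and the same share over the genome was not computed.

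ΔWAPL cells had more SMC1 reads than wild-type cells at nearly all HOX sites with a peak in both lines, and only such sites enter a ratio. Over 24 such regions the level ratio of ΔWAPL to wild-type cells ran from 1.03 to 3.51 with a median of 2.49, where 17290 regions of the genome had a median of 1.62. It was at least 1.5 in 20 of the 24, against 56.8% of all regions, and its counting interval lay above 1 in 19, against 42.7%. The median was 2.67 in HOXD (7 regions), 2.60 in HOXB (8), 2.58 in HOXA (5) and 1.53 in HOXC (4). The deposited fold enrichment rose less, with a median ratio of 1.36 against 1.25 for all regions, and reached 1.5 in 8 of the 24, against 26% of all. The local background around these summits rose as well, in 24 of 24 regions, by a median of 1.67-fold against 1.36-fold for all. What share of all regions had such a rise was not computed. Reads thus increased at the summits and over the 10 kb windows that contain them. Those windows include the reads of the peaks, so the background ratio does not show whether the surroundings gained reads separately. The PRAC2 site, at 1.03 (0.558 to 1.92), and the HOXC10 exon site, at 1.17 (0.573 to 2.44), had the smallest ratios.

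**Figure D4:**
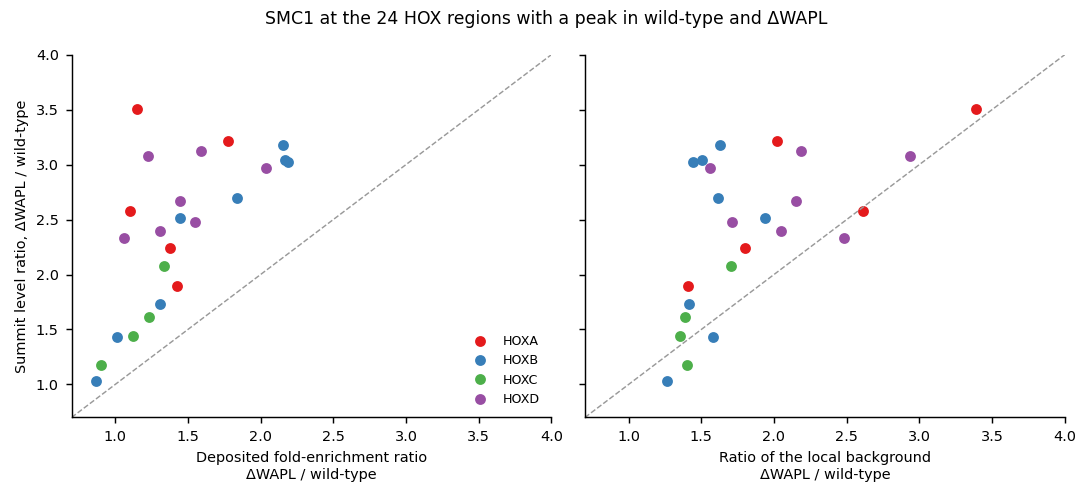
Level ratio of ΔWAPL to wild-type SMC1 summits (vertical axis) against the ratio of the deposited fold enrichment (left) and of the local background (right), 1 point per region, coloured by cluster, with the dashed line where both ratios are equal. All 24 points lie above the line on the left, and the background ratios run from 1.26 to 3.39.

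ΔSCC4 cells had SMC1 levels close to wild-type at the sites that kept a peak, while 7 wild-type peaks had no counterpart there. Sites without a call in ΔSCC4 cells leave the ratio, which can hold its median nearer to 1. Over 18 regions with a peak in both lines the median level ratio of ΔSCC4 to wild-type cells was 0.894, against 0.817 for 11130 regions of the genome. The ratio was at or below 1/1.5 in 1 of the 18, against 24.5% of all. The 6 regions that lacked a peak in ΔSCC4 cells alone had wild-type levels of 8.88 to 20.3, or 14 to 32 reads. They were the HOXA9/HOXA7 site, the LINC03057 site and 1 LINC02086 site of HOXB, the PRAC2 site, the site upstream of HOXC10 and the HOXD8/HOXD4 site. Double knockout cells had lower levels than ΔWAPL cells. The ratio of double knockout to ΔWAPL cells had a median of 0.533 over 25 regions, against 0.795 for 23181 regions of the genome. It was at or below 1/1.5 in 19 of them, against 32.5% of all, and its interval lay below 1 in 17, against 23% of all. By fold enrichment the difference was smaller, with a median ratio of 0.847 against 0.883 for all regions. That ratio was at or below 1/1.5 in 4 of 25, against 13.6% of all, and above 1 in 7, against 31.5%. The HOXA9/HOXA7 site changed direction between the measures, at 0.384 by level and 1.04 by fold enrichment. The local background fell in 25 of 25 of these regions, with a median ratio of 0.614, against 0.878 for all. What share of all regions had such a fall was not computed. Compared with wild-type, double knockout cells had a median level ratio of 1.33 over 23 regions, against 1.28 for all, and 4 regions reached 1.5, against 29.7%. Levels of double knockout cells lay between wild-type and ΔWAPL in 12 of the 17 regions present in every genotype, and below wild-type in 4. How often this order occurs over all regions was not computed, so it is not shown to be particular to HOX. The comparisons share libraries, so their values are not independent.

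CTCF levels differed most at 2 sites in ΔSCC4 cells. The median level ratio of ΔWAPL to wild-type cells was 0.874 over 29 regions, against 0.829 for the genome, and 1 region was at least 1.5-fold higher, against 4.84% of all. That was the 3′ UTR site of HOXB8, at 1.82 (0.833 to 4.28). In the other direction, 3 regions were at or below 1/1.5, against 16.3%, and 6 had a counting interval below 1, against 17.5%, such as the HOXB9/HOXB8 site at 0.609 (0.457 to 0.808). The median of ΔSCC4 to wild-type cells was 0.80, against 0.802, and 6 of 29 regions were at or below 1/1.5, against 22.4%, with a counting interval below 1 in 4, against 17.4%. The site in the 3′ UTR of PRAC2, a small gene beside HOXB13 (chr17:46801818-46802271), had 72 reads in the wild type, 82 in ΔWAPL, 13 in ΔSCC4 cells and 69 in double knockout cells. Its fold enrichments were 19.8, 19.1, 5.56 and 16, and the ΔSCC4 to wild-type level ratio was 0.160 (0.0812 to 0.291). The HOXD8/HOXD4 site (chr2:177004968-177005802) had 63, 75, 17 and 85 reads and fold enrichments of 15.2, 15.2, 7.24 and 15.9, with a level ratio of 0.239 (0.131 to 0.413). At both sites ΔSCC4 cells alone were low, and the double knockout level exceeded the ΔSCC4 level by 5.33-fold (2.92 to 10.5) and 5.02-fold (2.96 to 9.02). Of 35819 CTCF regions, 0.0112% had a ratio as low as the PRAC2 site or lower, and 0.0614% as low as the HOXD8/HOXD4 site. Both sites also lacked an SMC1 peak in ΔSCC4 cells and in no other genotype. At the other 4 sites without SMC1 in ΔSCC4 cells alone, the CTCF fold enrichment there was 17.3 between HOXA9 and HOXA7, 15.6 in LINC03057, 23.5 in LINC02086 and 14.6 upstream of HOXC10. These ΔSCC4 values come from 1 clone, and the deletion and the clone cannot be told apart.

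**Figure D5:**
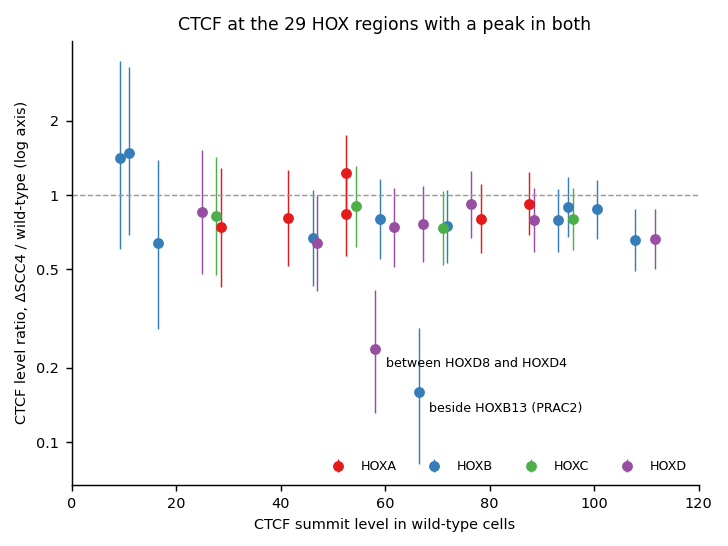
Ratio of the CTCF summit level of ΔSCC4 to wild-type cells (log axis) against the wild-type level, 1 point per HOX region with a peak in both, coloured by cluster, with bars for the 95% counting interval. The PRAC2 site, at 0.160, and the HOXD8/HOXD4 site, at 0.239, lie below the other 27.

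A second kind of SMC1 site stood at gene starts without CTCF. Of the 36 SMC1 regions, 8 overlapped no CTCF region of any genotype, against 16.6% of all, and all 8 had their summit within 1 kb of a transcript start. Closeness to a start was not confined to these, since 9 of the 28 SMC1 regions with CTCF also lay within 1 kb of one. In ΔWAPL cells, 7 of 33 SMC1 peaks had no CTCF peak and all 7 were within 1 kb of a start, against 83.8% of such peaks over the genome. The strongest lay 44 bp upstream of a HOXD8 start (chr2:176994163-176995472) and was the only one called in every genotype, with levels of 15.2 in the wild type, 37.7 in ΔWAPL, 13.8 in ΔSCC4 cells and 13 in double knockout cells. Its ΔWAPL to wild-type ratio was 2.47 (1.52 to 4.15). The start of HOTAIRM1, a long non-coding RNA of myeloid cells, at the HOXA2 end of HOXA, carried SMC1 in both lines without WAPL (chr7:27135683-27136292, level 18.2 in ΔWAPL and 17.5 in double knockout cells).

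The other sites of this kind were called in 1 genotype each, and ΔWAPL cells held 5 of those 6. Coding exons close to the starts of HOXA9 (chr7:27204739-27205043, level 22.6), HOXA13 (chr7:27239203-27239975, level 20.7) and HOXD13 (chr2:176957616-176958057, level 19.5) had a ΔWAPL peak. So did an intron of HOTAIRM1 (chr7:27136488-27136749, level 11.3) and the start of HOXD-AS2, an antisense transcript of HOXD (chr2:177001531-177001747, level 16.3). Their fold enrichments were 2.55 at HOXA9, 3.41 at HOXA13, 3.68 at HOXD13, 3.68 in HOTAIRM1 and 2.75 at HOXD-AS2. ΔSCC4 cells alone had a peak in an intron of HOXD3 (chr2:177022652-177022850), the weakest of the 36 regions by q-value, with 11 reads and a −log10 q of 1.99.

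Conversely, 9 of 38 CTCF regions never overlapped SMC1, against 41.1% of all. The strongest was the HOXD9/HOXD8 site (chr2:176991682-176992176), with fold enrichments of 19.4 in the wild type, 18.1 in ΔWAPL, 20.1 in ΔSCC4 cells and 20.2 in double knockout cells, as high as sites that did carry SMC1. In HOXA, the 3′ UTR of HOXA13 (chr7:27235747-27236187) had CTCF at 13.8, 11.8, 11.4 and 12.4. In HOXB, an intron of HOXB3 (chr17:46639421-46639856) had 5.75, 4.64, 8.4 and 5.55, and LINC02086 (chr17:46740540-46740808) had 7.57, 8.93 and 5.79 in the first 3 genotypes. None of these intervals overlapped an SMC1 peak in the 4 libraries, although the ΔWAPL SMC1 peak of LINC02086 began 43 bp beyond the edge of the CTCF site there. Weak ΔWAPL-only peaks made up the rest of those named by rule, at HOXA9 (fold enrichment 3.96), between HOXC9 and HOXC8 (4.05), between HOXC8 and HOXC6 (4.45) and between HOXD8 and HOXD4 (5.07). The remaining region was a wild-type peak beyond HOXB1.

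The group 9 border was marked in every cluster, though it was not the only such border. CTCF was bound between the group 9 gene and the next lower-numbered gene in all 4 genotypes in HOXA, HOXB, HOXC and HOXD, with wild-type levels of 78.4, 108, 71.0 and 76.6. SMC1 accompanied it in every genotype in HOXB and HOXC, in all but ΔSCC4 cells in HOXA, and in none in HOXD. The motifs pointed along the minus strand in HOXA and HOXB and along the plus strand in HOXC and HOXD, which in each case is the strand of the HOX genes themselves. HOXC held another CTCF site between HOXC9 and HOXC8, called in ΔWAPL cells alone with 14 reads, whose match lay on the minus strand. CTCF was likewise called in all 4 genotypes between HOXA11 and HOXA10, HOXC11 and HOXC10, and HOXD11 and HOXD10. Wild-type levels there were 52.6, 54.4 and 67.3, and those motif matches also lay on the strand of the HOX genes. Neither the CTCF site nor its strand was therefore particular to group 9. Within a cluster both orientations occurred, with 3 plus and 4 minus matches in HOXA, 8 and 4 in HOXB, 3 and 3 in HOXC and 4 and 3 in HOXD.

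Stronger CTCF sites tended to carry SMC1. In wild-type cells the 23 HOX CTCF regions with SMC1 had a median CTCF level of 67.3 (27.7 to 112) and the 7 without it 16.6 (9.22 to 76.6), and the ranges overlapped. Across sites with both proteins, the rank correlation of SMC1 and CTCF levels was 0.479 in the wild type (23 sites), 0.542 in ΔWAPL (26), 0.754 in ΔSCC4 (17) and 0.366 in double knockout cells (24). The sites of a genotype share their libraries, so these values are descriptions. The median ratio of the SMC1 level to the CTCF level was 0.218 in the wild type, 0.659 in ΔWAPL, 0.293 in ΔSCC4 cells and 0.330 in double knockout cells. The levels come from different antibodies and libraries, each scaled to its own average, and the sites differ between genotypes. The ratio is therefore not a measure of cohesin per bound CTCF.

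By gene, 20 of the 38 members had at least 1 SMC1 region and 22 at least 1 CTCF region. HOXD13 had 4 SMC1 regions, and HOXA13, HOXB9, HOXB13 and HOXD8 had 3 each. The 14 genes nearest to neither by coding span were HOXA3, HOXA4, HOXA7, HOXA10, HOXB2, HOXB4, HOXB7, HOXC4, HOXC6, HOXC11, HOXC12, HOXC13, HOXD1 and HOXD3. Regions were assigned to the nearest coding span, and 23 of the 36 SMC1 regions and 23 of the 38 CTCF regions went to the same gene when the nearest transcript start was used. By start, 6 of the 14 did receive a region, namely HOXA3, HOXA7, HOXA10, HOXB7, HOXC6 and HOXD3, and 8 had none by either rule.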

How the data were processed

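The authors mapped single-end reads to hg19 with Bowtie2 and called peaks per library with MACS2 (version 2.1.1 per the submitters' processing notes). The 12 deposited peak lists give intervals, a fold enrichment (a ratio), −log10 p-values and q-values, a score (not used) and summit offsets. The methods name IgG as the control, but the recovered backgrounds were whole, unscaled reads per 10 kb at 100% of tested peaks of the 8 SMC1 and CTCF lists, so fold enrichment was read as relative to the same library. Calling thresholds are not given in the sources used here, and the lowest −log10 q of these lists ran from 1.31 to 1.52. Summit reads and background were solved from the fold enrichment and the −log10 p-value of each peak, by a script tested on simulated data. Peaks overlapped at 1 bp or more, and peaks of one antibody were merged into regions. Annotation was GENCODE version 44 on GRCh37, the build of the peak coordinates. Shares carry Wilson intervals and level ratios exact conditional binomial intervals, and a change was called at 1.5-fold. Python 3.11.15, pandas 2.3.3 and scipy 1.17.1 were used. All SMC1 regions were named, and of CTCF regions never at SMC1 the 2 of highest −log10 q per cluster. The members, lists and rules were chosen with earlier results of these data known. Of the motif matches at SMC1 the 10 printed, and the HOXD9/HOXD8 match, were picked after values were seen. Alternatives changed peak thresholds, overlap rules, merging, the motif score and gene assignment. A planned gene list is not reported here.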

Additional observations from a re-analysis of the deposited data

Results flagged for a closer look

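In each case below the change with a deletion went opposite ways in the 2 backgrounds, and the difference was not tested. Of 42 such comparisons 15 are listed, and all share libraries.

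The number of HOX CTCF peaks went from 30 in the wild type to 36 in ΔWAPL cells, but from 30 in ΔSCC4 to 29 in double knockout cells. The share of HOX SMC1 peaks at a CTCF peak was 92.0% in the wild type, 78.8% in ΔWAPL, 89.5% in ΔSCC4 cells and 92.3% in double knockout cells. It was thus lower after loss of WAPL in SCC4-positive cells and higher in ΔSCC4 cells, and loss of SCC4 likewise went opposite ways. The share of HOX CTCF peaks at an SMC1 peak was 76.7%, 75%, 56.7% and 82.8% in the same order, and again both deletions went opposite ways in the 2 backgrounds.

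At single SMC1 sites, levels are given in the order wild-type, ΔWAPL, ΔSCC4, double knockout. The site between HOXB7 and HOXB6 had 11.4, 16.3, 16.7 and 8.43, and both deletions changed direction with the background. The site between HOXB9 and HOXB8 had 15.2, 26.4, 15.5 and 10.4, with the same property. Loss of WAPL went opposite ways at the site between HOXD13 and HOXD12, with 12.1, 28.9, 8.97 and 7.78, and at the HOXD8 start, with 15.2, 37.7, 13.8 and 13. Loss of SCC4 went opposite ways at the HOXA11/HOXA10 site (10.2, 32.6, 10.8 and 14.9), the LINC02086 site nearest to HOXB13 (15.9, 42.7, 19.7 and 25.3), the HOXC10 exon (10.2, 11.9, 8.37 and 13) and the HOXC5 start (20.9, 30.1, 22.7 and 27.2). Several of these differences are of a few reads.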

How the results depend on the processing

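No paired analysis was possible because each group held 1 library. Of 149 alternative values of the main results, 129 stayed within 1.5 times a count or within the interval of a share or median, and 20 moved. A change of direction was scored for the summit ratios only, and none of those had one. The 129 include 19 values with peaks at IgG peaks removed, which could not move because no IgG peak fell in the windows. At a −log10 q of at least 10, the SMC1 peaks numbered 11 in the wild type, 8 in ΔSCC4 cells and 17 in double knockout cells. The SMC1 peaks at CTCF were then 100.0% in the wild type and ΔSCC4 and 92.3% in ΔWAPL cells, and CTCF peaks at SMC1 40.7% in the wild type, 30.8% in ΔSCC4 cells and 59.3% in double knockout cells. Shares over the whole lists were not computed at this threshold. Whether HOX CTCF peaks still carried SMC1 in a larger share was therefore not checked. The share of wild-type SMC1 peaks overlapped in ΔWAPL cells was 100.0% at a −log10 q of 5 or 10 and at a fold enrichment of at least 5. At that fold enrichment, 92.3% of ΔWAPL SMC1 peaks lay at CTCF, 64.3% of double knockout CTCF peaks at SMC1, and 72.2% of wild-type SMC1 peaks were overlapped in double knockout cells. With the summit level in place of fold enrichment, the median SMC1 ratio to wild-type was 2.49 in ΔWAPL (fold enrichment 1.36) and 1.33 in double knockout cells, and that of CTCF 0.874 in ΔWAPL and 0.80 in ΔSCC4 cells. The stricter motif score left 57.9% of CTCF regions with a match. Why these values moved was not tested. For single regions, 140 of 151 level ratios to wild-type had the fold-enrichment ratio inside their counting interval, and none past 1.5-fold changed direction. The other 11 were 9 SMC1 sites in ΔWAPL cells, the HOXB9/HOXB8 CTCF site in ΔWAPL cells (level ratio 0.609) and the HOXD8/HOXD4 CTCF site in ΔSCC4 cells (0.239, fold enrichment 0.476). Of the 25 SMC1 ratios of double knockout to ΔWAPL cells, 9 had the fold-enrichment ratio outside the interval and 1 past 1.5-fold, the HOXA9/HOXA7 site, changed direction. Sites of 10 to 20 reads limit what can be told apart, and no replicate shows the variation between cultures.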
